A study of Mus musculus with 6 samples.

Results

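Processed pseudogenes are copies of spliced messenger RNAs that were reverse transcribed and inserted back into the genome, so they carry no introns and most lack the promoter of their parent gene. Ribosomal protein genes, which encode the proteins of the small (Rps) and large (Rpl) ribosomal subunits and are among the most strongly transcribed genes of every cell, have given rise to many such copies in mammals. Many copies differ from the parent coding sequence at only a few bases, so a sequenced read can be assigned to a copy only where it spans a difference or reaches past the copied part.

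The genes described here were all those whose mouse symbol starts with Rpl or Rps and contains -ps, and which were selected on a measured value, a raw count that summed to 60 or more over the 6 libraries. Of 295 such symbols among the 53379 genes in the files, 30 reached that sum, 265 did not, and 107 of those had no read in any library. For each copy, the parent is the gene named before -ps, and the reads on the copy were expressed as a share of the reads on copy plus parent. The 30 copies comprised 18 of small and 12 of large subunit genes and came from 25 parents. In the annotation 27 are processed pseudogenes, 2 are transcribed processed pseudogenes and 1, Rpl9-ps1, is listed as protein coding. They held 8555 counts, against 1908 on the other 265, and Rpsa-ps10 alone held 23.8% of all counts on ribosomal protein -ps genes.

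The series compared 3 libraries labelled GTF2ird1-/- (replicates 5, 6 and 7), called knockout here, with 3 wild type libraries (replicates 1, 3 and 4), all from cerebral cortex of C57BL/6 mice aged 2 months. Gtf2ird1 encodes a transcription factor from the chromosome region deleted in Williams syndrome, and the title calls the cells Gad2+ neurons, a class that makes the transmitter GABA. The sources used here give neither the allele, nor the way the cells were isolated, nor the number of animals behind a library. The p-values therefore reflect the spread among libraries alone, part of which may be technical. The library kit was one for stranded total RNA.

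The sequences below show some of the bases that separate the 3 copies whose reads differed between the groups from their parents. For Rpsa-ps9, only a stretch shared with Rpsa-ps10 is shown. Within the copied part, a read can be told from the parent only over such bases. The sequences are from GENCODE M21 transcripts (GRCm38), written 5′ to 3′ on the strand of the gene. Capitals mark the bases that differ between parent and copy. Positions are counted from 1 at the A of the parent's start codon, and each substitution gives the parent's base, the position and the copy's base. Rpsa-ps10 (ENSMUSG00000047676.6, chr3:150072658-150073542, minus strand) differs from Rpsa at 6 of its 885 bases: C25A, T210C, C219T, C345G, C696T and G858A. C25A is the only one of the 6 that alters the encoded amino acid. Around C25A, the parent (chr9:120128494-120128534, plus strand) and the copy (chr3:150073498-150073538, minus strand) read:
Rpsa: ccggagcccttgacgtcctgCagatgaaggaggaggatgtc
Rpsa-ps10: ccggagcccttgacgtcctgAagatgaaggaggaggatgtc

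Around T210C and C219T, Rpsa-ps10 (chr3:150073308-150073348, minus strand) and another copy, Rpsa-ps9 (chr2:28477359-28477399, plus strand), are identical to each other and differ from the parent (chr9:120129219-120129259, plus strand), so this stretch separates both copies from Rpsa but not from each other:
Rpsa: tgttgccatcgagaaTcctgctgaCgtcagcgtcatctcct
Rpsa-ps10: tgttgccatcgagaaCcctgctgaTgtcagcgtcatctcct
Rpsa-ps9: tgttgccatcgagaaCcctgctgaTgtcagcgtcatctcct

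C345G is found in 1 of the 9 named Rpsa copies, Rpsa-ps10. The parent (chr9:120130190-120130230, plus strand) and the copy (chr3:150073178-150073218, minus strand) read:
Rpsa: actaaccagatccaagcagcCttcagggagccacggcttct
Rpsa-ps10: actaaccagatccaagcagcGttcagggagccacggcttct

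Rpl14-ps1 (ENSMUSG00000046721.11, chr7:45324965-45325617, plus strand) differs from Rpl14 by 4 substitutions, C420T, A423G, C569T and A570G, and lacks 3 bases of a run of gcg and gct triplets, where the exact place of the loss cannot be told. The 2 stretches shown hold all of these differences. The parent stretches lie at chr9:120574140-120574210 and chr9:120574290-120574330 (plus strand), and those of the copy at chr7:45325364-45325431 and chr7:45325511-45325551 (plus strand):
Rpl14: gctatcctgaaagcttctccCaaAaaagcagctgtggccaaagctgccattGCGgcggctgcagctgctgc
Rpl14-ps1: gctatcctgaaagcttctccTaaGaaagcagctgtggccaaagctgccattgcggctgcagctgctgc
Rpl14: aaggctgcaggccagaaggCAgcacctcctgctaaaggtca
Rpl14-ps1: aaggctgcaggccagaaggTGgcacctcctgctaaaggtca

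Total gene counts ran from 16685959 to 30544144 in the libraries labelled knockout and from 13627501 to 28933624 in wild type. Gtf2ird1 averaged 46.4 ± 4.99 CPM (counts scaled to library size after TMM normalization) in the libraries labelled knockout and 35.9 ± 15.1 CPM in wild type (SD, n = 3 each; edgeR adjusted p = 0.703), so its count over the whole gene was not lower and does not check the labels. Markers of microglia outweighed those of GABAergic neurons in every library. The 12 microglia markers summed to between 32236 and 36156 CPM in libraries labelled knockout and between 29543 and 44917 CPM in wild type, against 483 to 944 and 156 to 643 CPM for 12 GABAergic markers, none of which was at 0 in all libraries. Astrocyte markers summed to 3334 to 6599 CPM in libraries labelled knockout and 288 to 3356 CPM in wild type, and oligodendrocyte markers to 2008 to 2655 and 176 to 2384 CPM. In such bulk samples fewer cells of a type and less RNA per cell cannot be told apart. The share of ribosomal RNA in the counts was 6.2% in knockout replicate 6 and 17.5% in wild type replicate 3, and no higher than 1.51% elsewhere.

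Each of the 30 copies had reads in all 6 libraries, and most took a small share of the reads of the pair. The mean share over the 6 libraries ran from 0.199% for Rpsa-ps9 to 8.76% for Rps26-ps1, with a median of 1.04%. It lay under 1% for 14 copies and at 5% or more for 3. All shares are of raw reads and depend on the annotated lengths of copy and parent. As levels per length, Rpsa-ps10 averaged 37.9 ± 4.02 RPKM in the libraries labelled knockout, the highest mean there, and 0.900 ± 0.144 RPKM in wild type, where 27 of the copies had higher means. Rpl38-ps2 averaged 32.4 ± 20.1 RPKM in the libraries labelled knockout and 22.3 ± 10.6 RPKM in wild type, and Rps26-ps1 12.4 ± 1.28 and 13.4 ± 2.90 RPKM (SD, n = 3 each throughout). In the libraries labelled knockout, Rpsa-ps10 and Rpl38-ps2 did not differ beyond their spread.

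**Figure D1:**
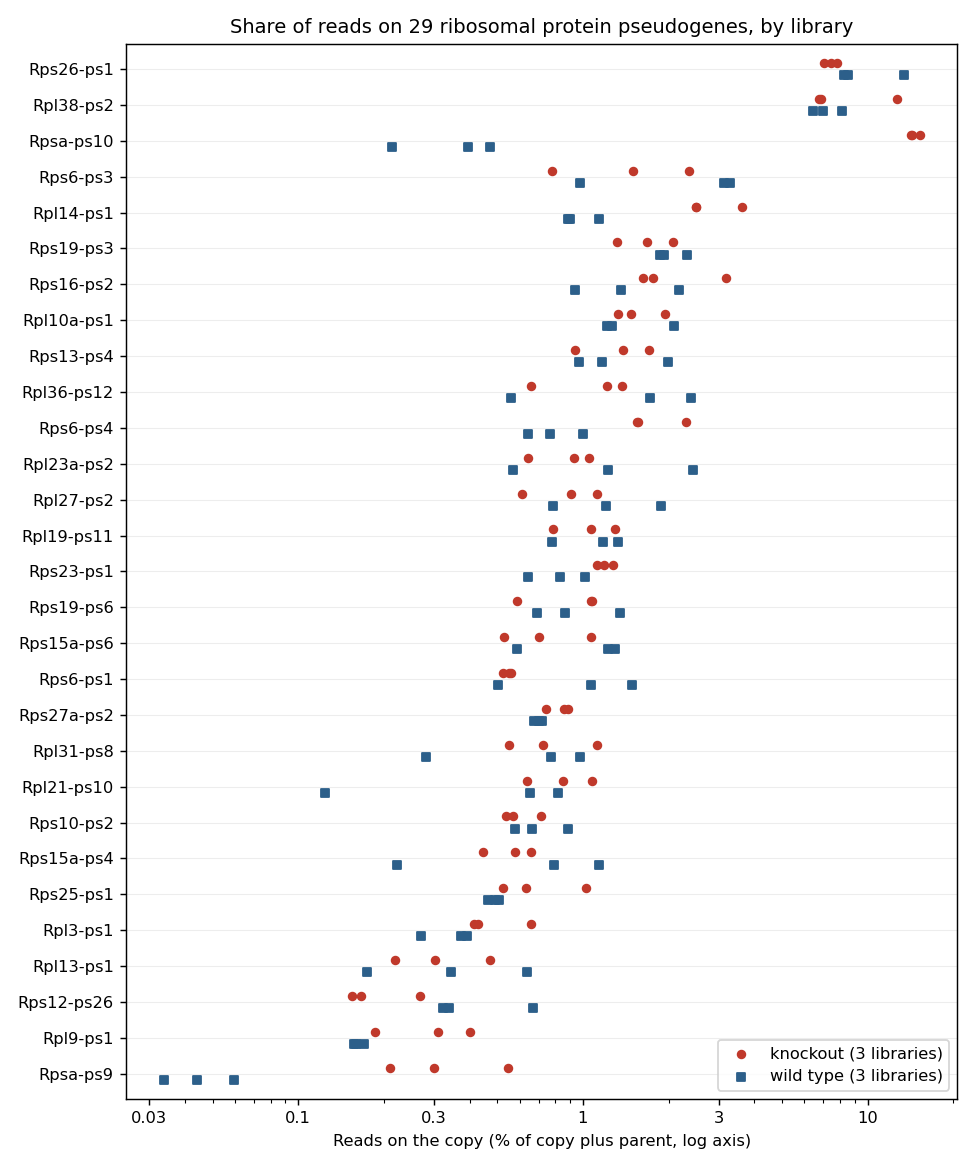
Reads on 29 of the copies as a percentage of the reads on copy plus parent (log axis), 1 point per library, knockout above wild type in each line, ordered by the mean over the 6 libraries. Rpsa-ps10 is at 14.3 to 15.2% in knockout and 0.214 to 0.473% in wild type, while most other copies have groups that overlap.

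Among the small subunit copies, Rps26-ps1 (Rps26 lies near the exit of the mRNA channel) had shares of 7.82, 7.04 and 7.44% in the libraries labelled knockout, against 8.57, 8.29 and 13.4% in wild type. The groups did not overlap, and wild type replicate 4 was the high one. Its ratio to the parent was not called (log2 change -0.45 ± 0.29 SE, limma adjusted p = 0.527). Rps19-ps3, whose parent is the gene most often mutated in human Diamond-Blackfan anaemia, had 2.07, 1.68 and 1.32% in the libraries labelled knockout and 1.87, 1.93 and 2.33% in wild type, with overlapping groups. Rps16-ps2 had 1.77, 3.18 and 1.63% in the libraries labelled knockout and 0.935, 2.18 and 1.36% in wild type, with knockout replicate 6 highest.

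Rps23-ps1, from a parent whose protein sits at the decoding centre, had shares of 1.12, 1.27 and 1.18% in the libraries labelled knockout and 1.01, 0.832 and 0.643% in wild type. Rps27a-ps2, whose parent encodes ubiquitin fused to a ribosomal protein, had 0.884, 0.856 and 0.742% in the libraries labelled knockout and 0.718, 0.676 and 0.701% in wild type. Rps25-ps1 had 0.525, 1.03 and 0.630% in the libraries labelled knockout and 0.490, 0.506 and 0.464% in wild type. In these 3 copies every library labelled knockout lay above every wild type library, the gaps between the groups were small, and limma gave adjusted p-values of 0.527 for Rps23-ps1, 0.744 for Rps27a-ps2 and 0.527 for Rps25-ps1.

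Among the large subunit copies, Rpl38-ps2, whose parent is needed in mice for normal patterning of the axial skeleton, had shares of 6.86, 12.7 and 6.74% in the libraries labelled knockout and 8.12, 6.44 and 6.96% in wild type. Knockout replicate 6 stood apart, and the other 5 libraries lay between 6.44 and 8.12%. Rpl10a-ps1 had 1.33, 1.48 and 1.94% in the libraries labelled knockout and 1.27, 2.08 and 1.22% in wild type, with overlapping groups. Rpl3-ps1, from a parent whose protein reaches the peptidyl transferase centre, had 0.414, 0.655 and 0.429% in the libraries labelled knockout and 0.372, 0.269 and 0.392% in wild type. Its groups did not overlap and its ratio to the parent was not called (log2 change 0.50 ± 0.31 SE, limma adjusted p = 0.527).

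Rpsa-ps10 was read strongly in every library labelled knockout and barely in wild type. Its parent Rpsa encodes a small subunit protein that was also described as a precursor of the laminin receptor. The counts were 909, 596 and 943 in knockout replicates 5, 6 and 7, against 19, 9 and 16 in wild type replicates 1, 3 and 4. As levels these were 35.5, 35.7 and 29.5 CPM in libraries labelled knockout and 0.661, 0.816 and 0.913 CPM in wild type. The 3 libraries of each group were close to each other and the groups were far apart. The means were 33.6 ± 3.56 CPM in libraries labelled knockout and 0.797 ± 0.127 CPM in wild type (SD, n = 3 each). The log2 fold change was 5.41 with an SE of 0.23 (edgeR adjusted p = 0.000455). Over the other tests and scalings and with each library left out, the log2 fold change stayed between 5.26 and 5.54 and the call was kept. Over all 17221 genes tested, edgeR called 0.00581% higher, which is this copy alone, and 0% lower.

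The share of Rpsa-ps10 in the reads of the pair was 14.3% (95% Clopper-Pearson interval 13.4 to 15.1%), 15.2% (14.1 to 16.4%) and 14.3% (13.4 to 15.1%) in knockout replicates 5, 6 and 7. It was 0.214% (0.129 to 0.334%), 0.395% (0.181 to 0.749%) and 0.473% (0.270 to 0.767%) in wild type replicates 1, 3 and 4. These intervals cover counting error only, since reads amplified by PCR are not independent molecules. The means were 14.6 ± 0.567% in the libraries labelled knockout and 0.361 ± 0.133% in wild type (SD, n = 3 each), and the log2 ratio of copy to parent differed by 5.59 ± 0.34 (SE; limma adjusted p = 0.000105). Pooled over the libraries, reads on the copy per read on the parent were 55.9 times as many in the libraries labelled knockout as in wild type (exact 95% interval 41.5 to 77.1, counting error only).

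No matching difference was detectable on the parent. Rpsa had 214, 198 and 177 CPM in libraries labelled knockout and 309, 206 and 192 CPM in wild type, with overlapping groups and a log2 fold change of -0.26 (edgeR adjusted p = 0.705). Copy and parent together averaged 230 ± 21.8 CPM in libraries labelled knockout and 236 ± 63.6 CPM in wild type (SD, n = 3 each). The spread among wild type libraries was larger than the level of the copy, so a shift of that size from the parent to the copy was not detectable. The longest stretch without a difference between copy and parent is 350 bases, so the counts are uncertain as a level of the copy.

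Astrocyte markers summed to 6599, 3334 and 3889 CPM in libraries labelled knockout and 3356, 461 and 288 CPM in wild type. Oligodendrocyte markers summed to 2655, 2008 and 2538 CPM in libraries labelled knockout and 2384, 444 and 176 CPM in wild type. Endothelial markers had 191, 110 and 148 CPM against 123, 68.5 and 55.8 CPM, and GABAergic markers 944, 483 and 483 against 254, 156 and 643 CPM. The groups overlapped in each of these sums. The part of those cells in the level of Rpsa-ps10 was not tested. The copy overlaps no other annotated gene. The nearest tested genes, Adgrl2 and Adgrl4, which encode adhesion receptors, lie 1082103 and 1364345 bases away, and neither was called (edgeR adjusted p = 0.685 and 0.637). Adgrl2 had 69.1, 56.1 and 92.1 CPM in libraries labelled knockout and 79.2, 76.4 and 121 CPM in wild type, with overlapping groups. Adgrl4 had 4.89, 6.95 and 7.25 CPM in libraries labelled knockout and 4.80, 2.08 and 0.742 CPM in wild type, without overlap and with a log2 fold change of 1.29, the same direction as the copy.

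**Figure D2:**
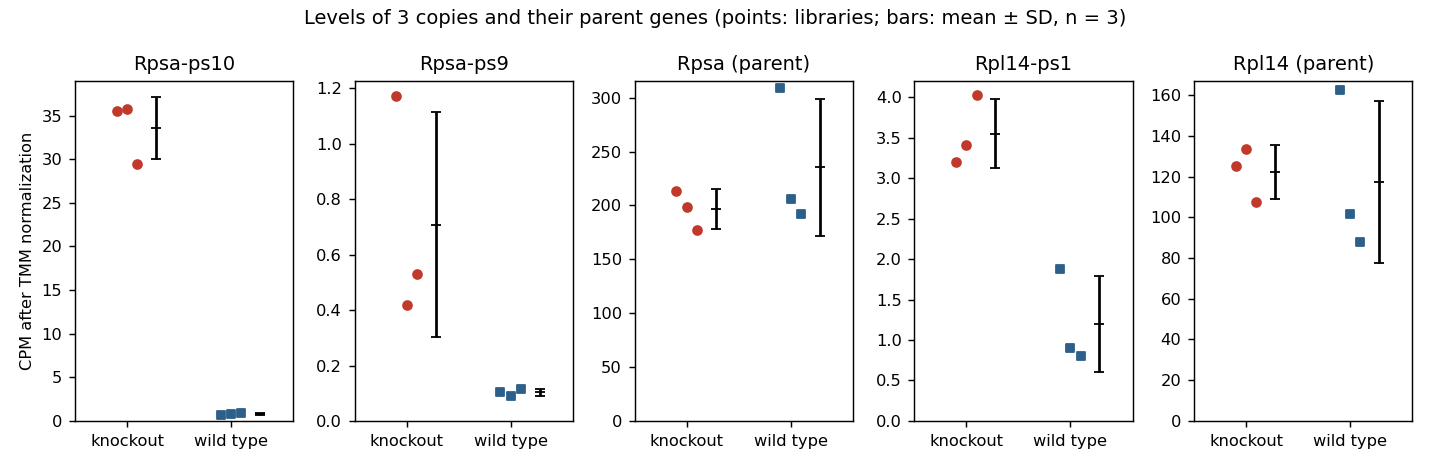
Levels in CPM after TMM scaling of 3 copies and their parents, each panel on its own axis from 0, 1 point per library, with bars for the mean ± SD (n = 3) of knockout and wild type. Knockout lies above wild type for all 3 copies, with 33.6 against 0.797 CPM for Rpsa-ps10, and the groups overlap for Rpsa and Rpl14.

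Rpsa-ps9 (ENSMUSG00000082895.1, chr2:28477166-28478050, plus strand) had far fewer reads, with the same direction. The counts were 30, 7 and 17 in the libraries labelled knockout and 3, 1 and 2 in wild type. Every library labelled knockout was above every wild type library, and the wild type counts were at or under 3. It reached the sum of 60 through its 54 counts in knockout, with 6 in wild type, and Rpsa-ps10 likewise had only 44 counts in wild type, so both entered the set through the group in which they are high. Shares were 0.546, 0.211 and 0.299% in the libraries labelled knockout and 0.0338, 0.0441 and 0.0593% in wild type. Reads on Rpsa-ps9 per read on Rpsa were 9.04 times as many in the libraries labelled knockout (exact 95% interval 3.89 to 25.7, counting error only). Limma called the ratio (adjusted p = 0.0130), but not with a pseudocount of 5 (adjusted p = 0.174) or without knockout replicate 7 (adjusted p = 0.0554). With a minimum of 10 summed counts on the copy, the ratio was not called either (limma adjusted p = 0.0551). Rpsa-ps9 was too low for the edgeR fit of all genes.

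Rpsa-ps9 differs from Rpsa by 15 substitutions and lacks 1 base of its coding sequence, and its reading frame is open for 48 codons, against all 295 in Rpsa-ps10. T210C is shared by 6 and C219T by 4 of the 9 named Rpsa copies, while the other 4 substitutions of Rpsa-ps10 were found in no other of the 9. The other 7 named Rpsa copies were near the floor of detection. Rpsa-ps2, which also carries T210C and C219T, had 6, 4 and 11 counts in the libraries labelled knockout and 7, 2 and 2 in wild type. Among the genes with counts analysed here, 10 beside Rpsa and Rpsa-ps9 match Rpsa-ps10 at 90% or more of its bases. Together they held 80 counts over the 6 libraries, and no single gene of them had more than 11 in a library. Mrps2, a mitochondrial ribosomal protein gene 5988 bases from Rpsa-ps9, was not called (edgeR adjusted p = 0.823). Gbgt1, a glycosyltransferase gene 18841 bases away on the other side, had 19.0, 21.1 and 27.2 CPM in libraries labelled knockout and 30.9, 42.9 and 31.0 CPM in wild type, without overlap, and was not called either (log2 fold change -0.64, edgeR adjusted p = 0.637).

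**Figure D3:**
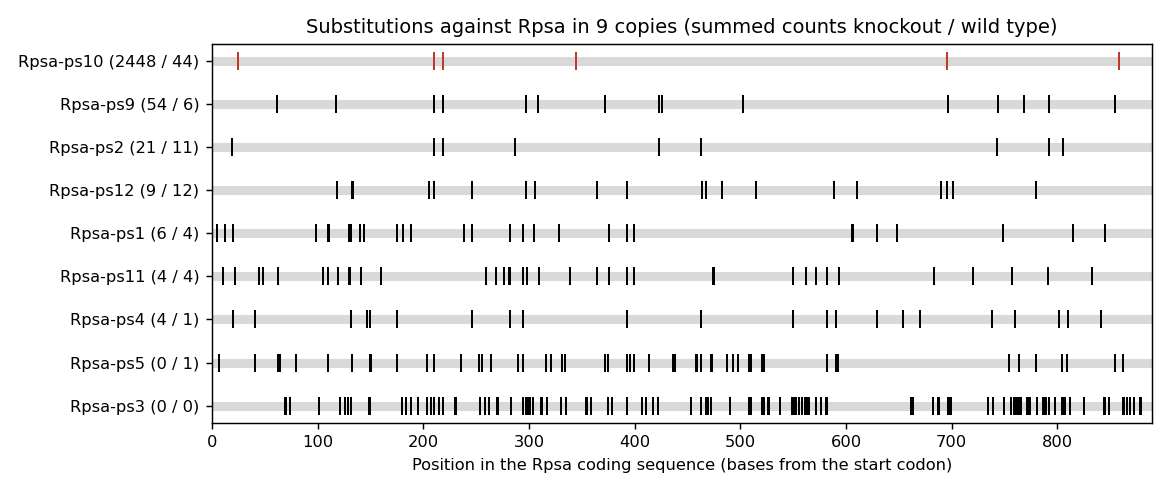
Positions of substitutions against Rpsa in its 9 named copies, in bases from the start codon, with the summed counts in knockout and in wild type beside each name. Rpsa-ps10 (red ticks, 2448 counts in knockout and 44 in wild type) has 6 ticks, and Rpsa-ps9 (54 and 6 counts) has 15.

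Rpl14-ps1, a copy of a large subunit gene, was the third copy with a changed ratio. Its counts were 82, 57 and 129 in the libraries labelled knockout and 54, 10 and 14 in wild type. The levels were 3.21, 3.42 and 4.03 CPM in libraries labelled knockout and 1.88, 0.906 and 0.799 CPM in wild type, where replicate 1 was the high one and still below every library labelled knockout. Shares were 2.49, 2.49 and 3.61% in the libraries labelled knockout and 1.14, 0.884 and 0.901% in wild type, with means of 2.87 ± 0.645% and 0.976 ± 0.144% (SD, n = 3 each). The log2 ratio of copy to parent differed by 1.53 ± 0.26 (SE, limma adjusted p = 0.0133). The call was lost without knockout replicate 7 (limma adjusted p = 0.0540) or wild type replicate 3 (limma adjusted p = 0.0656). It was also lost with a minimum of 10 summed counts on the copy (limma adjusted p = 0.0551). The level itself, with a log2 fold change of 1.53 ± 0.42, was not called (SE; edgeR adjusted p = 0.637), and was called without wild type replicate 1 at 2.06 (adjusted p = 0.0491), a setting in which 1.77% of all genes tested were called higher and 0.0866% lower.

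The parent Rpl14 had a log2 fold change of 0.06 (edgeR adjusted p = 0.947). Rpl14-ps1 lies in an intron of Trpm4, a cation channel gene on the opposite strand, which had 33.7, 40.0 and 44.8 CPM in libraries labelled knockout and 54.5, 65.5 and 52.7 CPM in wild type (log2 fold change -0.54 ± 0.16 SE, edgeR adjusted p = 0.637). The direction of Trpm4 was opposite to that of the copy, and the groups did not overlap. No source used here states the strand setting of the counting, so reads of overlapping genes on opposite strands may not have been separated. Within wild type, replicate 1 was highest both in Rpl14-ps1 and in the astrocyte, oligodendrocyte and endothelial sums. The part of those cells in the result was not tested.

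Across the copies as a set, Rpsa-ps10 stood alone by level. Of the 28 copies that passed the edgeR filter, 1 was called higher and 0 lower, and 3 had an unadjusted p under 0.05, namely Rpsa-ps10 and Rpl14-ps1 (higher) and Rps12-ps26 (lower). Over all genes tested, 4.48% were higher and 2.77% lower at that unadjusted p. DESeq2 called 1 of the 30, Rpsa-ps10, against 0.086% of all genes higher and 0.0287% lower. Log2 fold changes were positive for 13 and negative for 15, with a median of -0.02, against -0.03 over all genes tested. The CPM of the groups did not overlap for 4 tested copies that were higher in the libraries labelled knockout (Rpsa-ps10, Rpl14-ps1, Rps6-ps4 and Rps16-ps2). The same held for 2 that were lower (Rps6-ps1 and Rps12-ps26). Over all genes tested, which were not chosen by the limit of 60 summed counts, it held for 6.34% (higher) and 6.68% (lower). Rpsa-ps10, Rps6-ps4 and Rps16-ps2 reached 60 in knockout but not in wild type (44, 56 and 25 counts). Rpl14-ps1 reached 60 in each group alone. Rps6-ps1 and Rps12-ps26 reached 60 in neither (39 and 31 in knockout, 48 and 52 in wild type). The limit thus favoured the knockout direction in Rpsa-ps10, Rps6-ps4 and Rps16-ps2. Rpl9-ps1 and Rpsa-ps9 were not tested by level. Apart from Rpsa-ps10 and Rpl14-ps1, the highest log2 fold changes were 1.0 for Rps6-ps4, 0.94 for Rps16-ps2 and 0.69 for Rps25-ps1. The lowest were -1.11 for Rps12-ps26, -0.77 for Rps6-ps1, -0.56 for Rps6-ps3, -0.43 for Rpl27-ps2 and -0.39 for Rpl23a-ps2. None of these 8 was called by edgeR.

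By the ratio of copy to parent, limma called 3 of the 30 copies higher and 0 lower. Over all 64 pairs of a -ps gene and its parent, which include these 30, 6.25% were called higher and 0% lower. The fourth pair was Hmgb1-ps7, a copy of a chromatin protein gene, with 414, 250 and 362 counts in the libraries labelled knockout and 7, 1 and 0 in wild type. Of the 4 calls, 3 were thus among the 30 ribosomal protein copies and 1 among the 34 other pairs, and the difference between these shares was not tested. Among the 4, Rpsa-ps10, Rpsa-ps9 and Hmgb1-ps7 met the limit of 60 summed counts only through their counts in knockout. The ratio was positive for 14 copies and negative for 16, with a median of -0.05 on the log2 scale, the same as over all pairs to 2 decimals. The shares of the groups did not overlap for 9 copies that were higher in the libraries labelled knockout and 2 that were lower. Over all 64 pairs, these 30 included, they did not overlap for 18.8% (higher) and 9.38% (lower). The shares overlapped for 19 copies. Of the 9, Rpsa-ps10, Rps6-ps4 and Rps25-ps1 reached 60 summed counts in knockout but not in wild type (44, 56 and 58 counts). Rpsa-ps9 (54 in knockout and 6 in wild type) and Rpl9-ps1 (48 and 20) reached 60 in neither group alone. The limit on counts thus favoured the knockout direction in these copies.

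**Figure D4:**
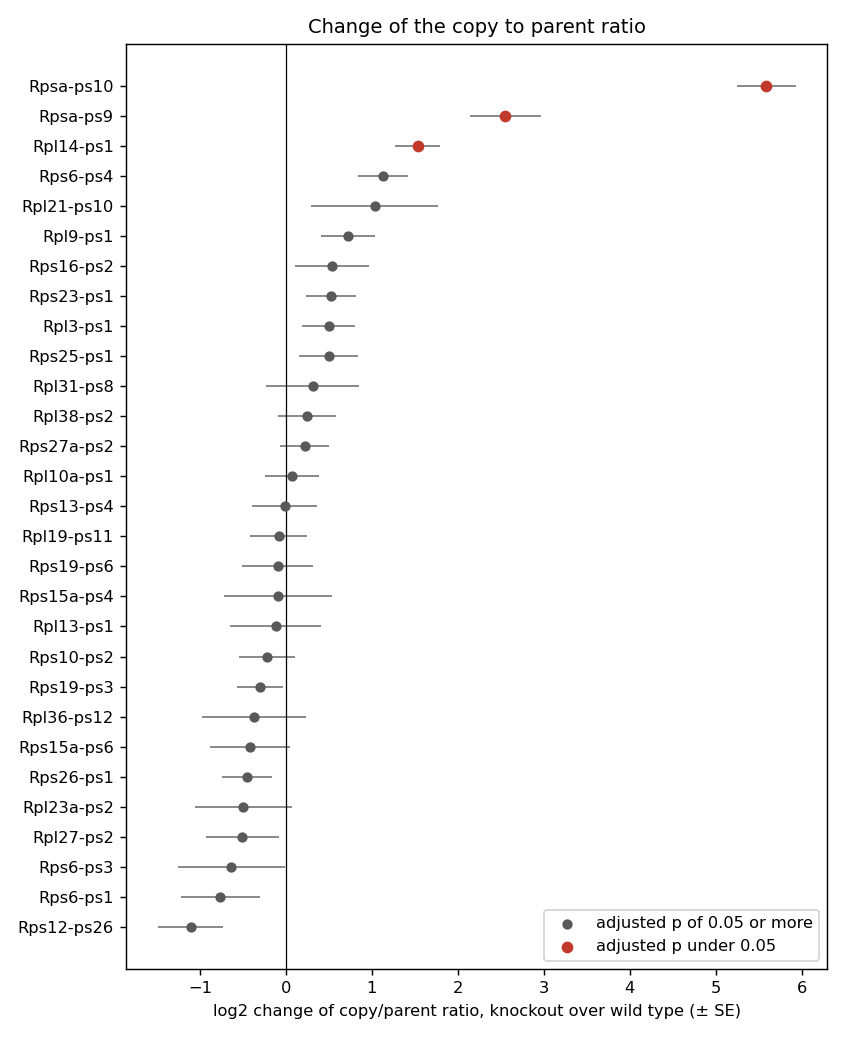
Change of the log2 ratio of copy to parent, knockout over wild type, for 29 of the copies in order of the change, with lines of ± SE from limma. Rpsa-ps10, Rpsa-ps9 and Rpl14-ps1 (red, adjusted p under 0.05) lie at 5.59, 2.55 and 1.53, and the other 26 (grey) run from -1.11 to 1.13.

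Rps12-ps26 had the most negative change and is also the least similar copy, with 85.4% identity. Its levels were 0.352, 0.30 and 0.531 CPM in libraries labelled knockout and 0.974, 0.634 and 0.970 CPM in wild type, without overlap. Neither its level (log2 fold change -1.11 ± 0.44 SE, edgeR adjusted p = 0.637) nor its ratio to Rps12 (limma adjusted p = 0.186) was called. It lies in an intron of Nol11, a nucleolar protein gene on the same strand, whose level had a log2 fold change of -0.09 (edgeR adjusted p = 0.856).

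The 3 copies of Rps6, whose protein is the classic target of S6 kinases, went in different directions, and none had a called ratio with all libraries in the fit. Rps6-ps4 had shares of 1.54, 1.56 and 2.30% in the libraries labelled knockout and 1.0, 0.642 and 0.765% in wild type, without overlap (log2 change of the ratio 1.13 ± 0.29 SE, limma adjusted p = 0.0733). Rps6-ps1 had 0.557, 0.525 and 0.55% in the libraries labelled knockout and 0.505, 1.49 and 1.07% in wild type. Rps6-ps3 had 0.778, 1.5 and 2.36% in the libraries labelled knockout and 0.980, 3.13 and 3.28% in wild type. The log2 ratios of Rps6-ps1 and Rps6-ps3 changed by -0.76 and -0.63, with overlapping shares. Without wild type replicate 1, the ratio was called higher for Rps6-ps4 and lower for Rps6-ps1, at log2 changes of 1.28 and -1.21 (limma adjusted p = 0.0409 for both).

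The copies of Rps15a and of Rps19, a pair each, had overlapping groups. Rps15a-ps4 had shares of 0.657, 0.576 and 0.447% in the libraries labelled knockout and 0.221, 0.794 and 1.14% in wild type, the widest spread of these 4 within a group. Rps15a-ps6 had 0.526, 0.699 and 1.07% in the libraries labelled knockout and 0.588, 1.22 and 1.29% in wild type. Rps19-ps6 had 0.589, 1.08 and 1.06% in the libraries labelled knockout and 0.688, 1.35 and 0.864% in wild type. None of these ratios was called by limma, with log2 changes of -0.10 for Rps15a-ps4, -0.42 for Rps15a-ps6, -0.09 for Rps19-ps6 and -0.30 for Rps19-ps3.

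Wild type libraries differed among themselves across the set. The lowest share of a copy was in wild type replicate 1 for 10 of the 30 copies, and the highest was in wild type replicate 4 for 9 and in wild type replicate 3 for 7. Knockout replicate 6 had the highest share for 6. Summed over the 30 copies and their parents, the copies took 2.40 ± 0.114% of the reads in the libraries labelled knockout and 1.37 ± 0.282% in wild type (SD, n = 3 each). Without Rpsa-ps10 the values were 1.43 ± 0.136% and 1.35 ± 0.272% (SD, n = 3 each), with overlapping groups.

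The parents and the other ribosomal protein genes showed no called change. Of 86 genes for cytosolic ribosomal proteins, 84 were tested and edgeR called 0, with 1 at an unadjusted p under 0.05, 0 called by DESeq2 and 0 by limma-voom. Their log2 fold changes had a median of 0.03, and 57 were positive. The summed level of the list was 10649 to 12655 CPM in libraries labelled knockout and 8754 to 16010 CPM in wild type, highest in wild type replicate 1. Rpl21 had the most negative change, with 97.7, 112 and 83.1 CPM in libraries labelled knockout and 253, 152 and 145 CPM in wild type (log2 fold change -0.91, edgeR adjusted p = 0.637). The groups did not overlap for Rpl21. Its copy Rpl21-ps10 had 0.626, 0.959 and 0.906 CPM in libraries labelled knockout and 0.313, 0.997 and 1.20 CPM in wild type, with overlapping groups, and 77 other genes of the annotation, whether or not they have counts here, match that copy at 90% or more of its bases.

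The copies had high identity to the parents they are named after. Names and counts chose the set, and its identity was not compared with that of the other 265 copies. Identity over the coding sequence had a median of 98.9% and was 100% for 6 copies, Rpl10a-ps1, Rpl31-ps8, Rpl38-ps2, Rps16-ps2, Rps23-ps1 and Rps6-ps4. In those 6 no read that lies within the coding sequence can be told from the parent by sequence. Their median share was 1.43%, against 0.919% for 16 copies from 98% to under 100% and 0.862% for 8 copies under 98%. The ranges of the 3 classes overlapped. For 26 copies no other annotated gene was more similar than the parent, though some matched it equally, such as Gm8172 for Rps6-ps1. The exceptions were Rps26-ps1, Rps19-ps3, Rps12-ps26 and Rpl21-ps10, nearest to Med21, Rps19-ps6, Rps12-ps19 and Gm10163. Med21 matched Rps26-ps1 at 97.8% of its bases. In 12 copies the annotated interval held a full reading frame with its stop codon. The frame was open to within 3 codons of the parent's length in 21 copies. Rpsa-ps10, with 295 of 295 codons open, is annotated only up to the stop codon and is not among the 12.

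**Figure D5:**
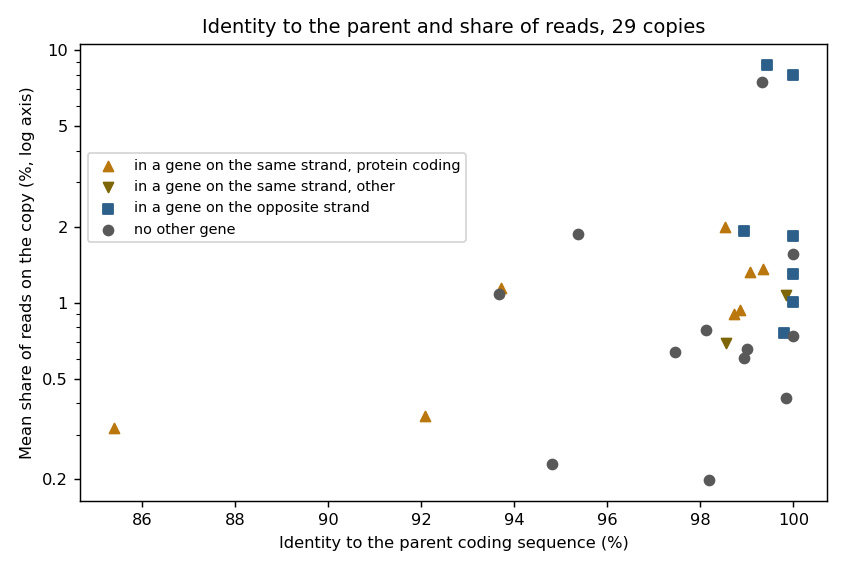
Mean share of reads over the 6 libraries (log axis, %) against identity to the parent coding sequence (%), 1 point for each of 29 copies, with shapes for the position relative to other genes. Copies with 100% identity run from 0.738 to 7.96%, and Rps12-ps26, at 85.4% identity, has a share of 0.320%.

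By position, the 30 copies lie on 14 chromosomes, with 6 on chromosome 11 and 2 on the chromosome of their parent. Of these, 9 lie in introns of a protein-coding gene on the same strand, 2 overlap another kind of gene on the same strand, 7 overlap a gene on the opposite strand and 12 overlap none. Median shares were 1.14% for the 9 in same-strand introns, 1.84% for the 7 on the opposite strand and 0.697% for the 12 without overlap, with ranges that overlapped. Reads of unspliced host RNA can fall on a copy in an intron, and Rabep1, an endosomal protein gene around Rpl23a-ps2, had a mean of 102 CPM. Rabep1 was not called by edgeR (adjusted p = 0.748), and the part of host RNA in the counts was not tested. Rpl13-ps1 lies in the opposite orientation to its parent's sequence, in an intron of the ubiquitin protease gene Usp32 and on its strand, so a read from the annotated strand is antisense to Rpl13. It had 11, 9 and 27 counts in the libraries labelled knockout and 12, 6 and 16 in wild type.

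Around the limit of 60 summed counts, the copies just inside were Rpl27-ps2 with 75, Rpl9-ps1 with 68 and Rpsa-ps9 with 60. Those just outside were Rpl7-ps7 and Rpl9-ps6 with 58 each and Rps24-ps3 with 56. Rpl9-ps1 had 17, 7 and 24 counts in the libraries labelled knockout and 13, 3 and 4 in wild type, and Rpl27-ps2 had 18, 9 and 10 in the libraries labelled knockout and 18, 11 and 9 in wild type. Of the 30 copies, 16 would reach 60 in each group alone.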

How the data were processed

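The deposited values are raw HTSeq counts per gene, with a file for each library. The submitters' processing notes list Trim Galore 0.60, STAR 2.7 and HTSeq 1.31 as tools, with mm10 as the build. The sources used here give no annotation release, strand setting, read length or handling of reads with several alignments. The line for such reads was 0 in every file. Lines naming no gene stayed out of totals and tests, and reads outside genes made up 40.0 to 58.2% of all counted reads and ambiguous ones 1.94 to 14.5%. Gene identifiers were matched to GENCODE M21 (GRCm38), which held 53274 of 53379. The members and lists were chosen with earlier results of these data known.

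Levels were tested with edgeR 4.0.16 (quasi-likelihood F-test, TMM, filterByExpr, robust) in R 4.3.3, with Benjamini-Hochberg adjustment over 17221 genes. Log2 ratios of copy to parent, with a pseudocount of 0.5 on both counts, were tested with limma 3.58.1 over all 64 pairs with 60 or more summed counts on the copy. Tests were two-sided at an adjusted p of 0.05. They were also run on simulated counts with the same dispersion for every gene. That setting was not matched to the spread among these libraries, so it does not show how the tests behave here. RPKM are TMM-scaled CPM per kilobase of merged exon. The detection floor of 3 counts in a library equalled 0.0937 to 0.272 CPM. Sequences were compared with BLAST 2.17.0 and Biopython 1.88. Libraries of a group differed beyond sampling noise, with a chi-square per degree of freedom of at least 49.8, and each counted as 1 sample. Copies named with values were those called, those highest in summed count, share or fold change in either direction, those nearest the limit of 60, those of parents with most copies, and those of at least 1 CPM whose shares did not overlap between groups. Values of 1 copy that this rule would name are not reported here. Host genes, neighbours, Rpl13-ps1, Rpl21-ps10, Rpsa-ps2 and Hmgb1-ps7 were chosen after their values were seen. Alternatives were DESeq2 1.42.0, limma-voom, other scalings, no filter, removal of ribosomal and small RNA genes, other pseudocounts and count minimums, and leaving out each library.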

Additional observations from a re-analysis of the deposited data

How the results depend on the processing

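No paired analysis was possible because the groups share no replicate numbers. Rpsa-ps10 was called in every setting run, by level and by ratio. Over all genes, the 1 call of edgeR became 28 with DESeq2, 5 without the filter on low counts and 1 to 321 with 1 library left out, the 321 arising without wild type replicate 1. Without knockout replicate 7 there were 6 and without wild type replicate 4 there were 3. Among the copies, 1 to 2 were called by level with 1 library left out. Over all 64 pairs, 2 to 8 ratios were called with 1 library left out. Among the 30 copies, 1 to 5 were called by ratio with 1 library left out, 1 without knockout replicate 7 and 5 without wild type replicate 1. With a copy minimum of 10, which takes in 84 ribosomal protein copies, 1 was called. The log2 fold change of Rps25-ps1 ran from -0.047 (without knockout replicate 6) to 0.98 with 1 library left out. The cause of these changes was not tested. No ribosomal protein gene was called in any setting run. Shares of reads computed per base of exon were higher, at 38.0% in the libraries labelled knockout and 1.28% in wild type for Rpsa-ps10, since the merged exons of Rpsa are longer than the copy. Depth limits copies with a few counts in a library, such as Rpsa-ps9 in wild type.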
